A study of Mus musculus with 32 samples.

Results

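The overexpression of a mutated CTCF was examined in E14 cells, a mouse embryonic stem cell line, by RNA sequencing of libraries titled as having received no auxin. The comparison set 2 libraries titled oeCTCFmut against 2 libraries titled oectrl and covered all genes with a mean of at least 10 normalised counts over the 12 libraries of the overexpression table. These were 13938 of the 14970 genes listed in that table, and the 5 tables of the series together list 17440 genes. At the limit of 10, Rhd (mean 10.001) was the lowest gene kept and Gm38056 (mean 9.989) the highest gene left out. The series holds 32 libraries in 16 groups of 2, mostly from E14 lines labelled CTCF AID or RAD21 AID. An AID, or auxin-inducible degron, marks the protein it is fused to for destruction once an auxin is added.

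All cells of the overexpression table, controls included, were labelled CTCF AID. The genotype labels gave an overexpressed control (oectrl), overexpressed wild-type CTCF (oeCTCFwt) or overexpressed mutated CTCF (oeCTCFmut), each also with libraries titled IAA, for indole-3-acetic acid, used at 500 uM. The labels name neither the mutation, nor the promoter that drove the added CTCF, nor the number of clones. They also do not say whether the 2 libraries of a group came from separate cultures, so the p-values measure only the spread between those libraries. The medium was serum-free, with leukemia inhibitory factor and the inhibitors PD0325901 and CHIR99021.

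Titles and treatment labels disagree for 4 libraries. Those titled oeCTCFmut, without IAA in the title, are labelled as treated with IAA for 12 h, and those titled oeCTCFwt_IAA are labelled as untreated. Groups here follow the titles, so "mutated CTCF" below means the libraries titled oeCTCFmut. Cyp1a1, a detoxifying oxidase induced through the aryl hydrocarbon receptor, is a transcript on which the libraries titled with and without IAA differ. It stood at 109 and 105 normalised counts in oectrl, 107 and 94.8 in oeCTCFwt, 142 and 138 in oeCTCFmut, 883 and 833 in oectrl_IAA, 833 and 946 in oeCTCFwt_IAA, and 1553 and 1429 in oeCTCFmut_IAA. The oeCTCFmut libraries lay just above the other libraries titled without IAA and far below all libraries titled IAA, and limma did not call their difference from oectrl (log2 difference 0.38, SE 0.10, adjusted p 0.0527). Cyp1b1, another target of that receptor, was at 6.37 and 6.66 in oectrl, 14.5 and 7.00 in oeCTCFmut and 66.8 and 64.9 in oectrl_IAA. Over 10 genes listed for that receptor, log2 differences between oeCTCFmut and oectrl ran from -0.22 to 1.17, with a median of 0.15. Limma called 0 of them higher and 1 lower, against 3.31% and 2.24% over all genes tested. Between oeCTCFmut and oeCTCFwt it called 2 higher and 0 lower, against 3.49% and 2.73% over all genes. Against the libraries titled oectrl_IAA, which carry the same treatment label, mutated CTCF differed by limma in 3297 genes (23.7% of those tested). Between oeCTCFmut_IAA and oeCTCFmut, which also share the treatment label, 2262 genes differed (16.2%).

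CTCF is a zinc finger protein that binds DNA at a large number of sites, stops the cohesin ring as it extrudes chromatin loops, and so sets the borders of many chromatin domains. It is essential in embryonic stem cells and is best known for insulating imprinted and clustered genes. Added CTCF can occupy sites, or compete for partners, alongside the endogenous protein, and a mutated form may do this differently from the wild type.

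The libraries of the table had totals of 19073890 to 19546135 normalised counts, and replicates correlated across genes with r from 0.9847 to 0.9892 on the log2 scale. All 9 embryonic stem cell markers were listed, with a summed level of 128115 to 129288 in oectrl, 131569 to 131619 in oeCTCFwt and 126453 to 126642 in oeCTCFmut. The defining markers Sox17 of primitive endoderm, Elf5 and Hand1 of trophoblast, Pax6 of neural cells, and Col1a2, Col3a1, Postn and Dcn of fibroblasts were not listed. The summed level of the primitive endoderm markers was 42.4 to 64.4 in oectrl and 58.1 to 59.2 in oeCTCFmut, that of the 2 listed fibroblast markers 21.4 to 50.5 and 26.7 to 48.7. Pou5f1, Sox2 and Nanog, the core factors of pluripotency, had log2 differences between mutated CTCF and control of -0.01, 0.09 and 0.02, none of them called by limma (adjusted p 0.861, 0.194 and 0.716).

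Ctcf itself (ENSMUSG00000005698.15, GRCm38 chromosome 8, 105636568 to 105682922, plus strand) was at 4134 and 4332 normalised counts in oectrl, 9275 and 9481 in oeCTCFwt, and 9589 and 9712 in oeCTCFmut. Both overexpressing groups were clear of the control, and close to each other. Mutated CTCF was 2.28-fold above control (log2 difference 1.19, SE 0.03, limma adjusted p 1.7e-08), and its difference from wild-type CTCF was 0.04 (SE 0.03, adjusted p 0.502). The table gives 1 value for Ctcf, so transcripts of the endogenous gene and of the added form cannot be told apart.

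With Ctcf transcript at that level, limma called 774 genes (5.55% of those tested) between mutated CTCF and control at an adjusted p under 0.05, of which 462 (3.31%) were higher and 312 (2.24%) lower. Most of the changes were small. The median log2 difference was 0.274 (1.21-fold) among the genes called higher and -0.338 (a fall of 20.9%) among those called lower, and only 21 and 22 of them changed at least 2-fold. For all 774 genes the 2 libraries of each group did not overlap, which held for 50.5% of all genes tested. The calls were made on these same libraries, so this separation is no separate support for them. Genes called higher had a median level of 2242 normalised counts and genes called lower of 1074, against 427 over all genes tested. Wild-type CTCF, set against the same oectrl libraries, gave 125 calls (0.897%), 70 higher and 55 lower. The direct test of mutated against wild-type CTCF gave 868 calls (6.23%), with 487 genes (3.49%) higher and 381 (2.73%) lower in mutated CTCF. With only the 4 libraries compared in the fit, which leaves 2 residual degrees of freedom, the calls between mutated CTCF and control numbered 186. A grouping by treatment label makes another contrast, of the 4 mutated libraries (oeCTCFmut and oeCTCFmut_IAA) against the oectrl_IAA libraries, and gave 413 calls. Leaving out 1 library at a time gave 321 to 394 calls: 392 and 394 without oectrl replicate 1 or 2, and 373 and 321 without oeCTCFmut replicate 1 or 2.

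**Figure D1:**
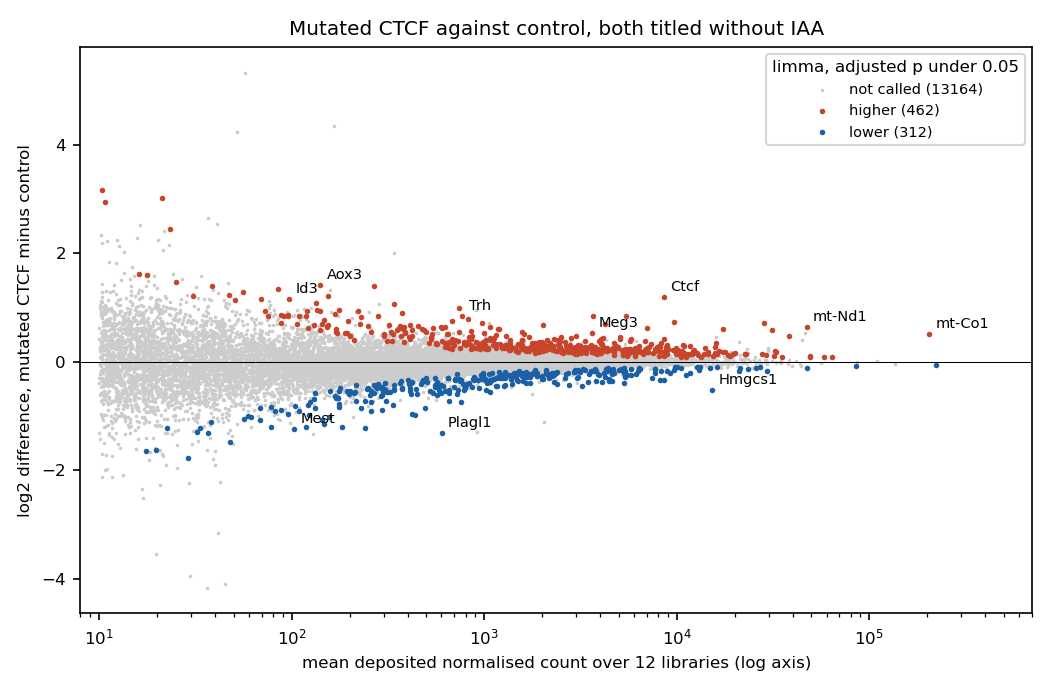
Each point is a gene, placed by its mean normalised count over 12 libraries (x, log axis) and its log2 difference between mutated CTCF and control (y); red points were called higher (462) and blue points lower (312) by limma. Called genes of high level include mt-Co1 and mt-Nd1 above the zero line and Hmgcs1 below it, and nearly all called genes lie within 1 unit of zero.

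The largest falls included genes that were as low with wild-type as with mutated CTCF. Plagl1 (ENSMUSG00000019817.18, chromosome 10, 13060504 to 13131694, plus strand), an imprinted zinc finger gene that restrains growth, was at 1101 and 1076 normalised counts in oectrl, 516 and 385 in oeCTCFwt, and 485 and 397 in oeCTCFmut. All 4 overexpressing libraries lay below both controls. The log2 difference was -1.31 for mutated CTCF (SE 0.15, limma adjusted p 0.001) and -0.02 between mutated and wild-type (adjusted p 0.956). Mest (chromosome 6, 30723547 to 30748465, plus strand), another imprinted gene, was at 145 and 144 in oectrl, 26.1 and 52.3 in oeCTCFwt, and 51 and 71.8 in oeCTCFmut. Its groups also did not overlap the control, and the fall with mutated CTCF was -1.24 (SE 0.29, limma adjusted p 0.0334), a call that was lost when any of the 4 libraries was left out (highest adjusted p 0.176). Mest overlaps exons of Copg2 on the opposite strand, and strand use in counting is not given in the sources used here.

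Genes of the X-linked Xlr family were also lower with both forms. Xlr5a was at 396 and 457 normalised counts in oectrl, 167 and 146 in oeCTCFwt and 164 and 200 in oeCTCFmut (log2 difference -1.23 for mutated CTCF, SE 0.16, limma adjusted p 0.00189). Xlr5b had a difference of -1.20 (SE 0.16, adjusted p 0.00193). Neither differed by limma between mutated and wild-type CTCF (0.21 and -0.20, adjusted p 0.497 and 0.518). The Xlr5 genes are near-identical copies, and Xlr5a shares exonic sequence positions with Xlr5c, so reads may have been split between them. Spopl, which encodes a substrate adaptor of a ubiquitin ligase, was at 779 and 648 in oectrl, 336 and 388 in oeCTCFwt and 345 and 375 in oeCTCFmut (-0.98 for mutated CTCF, SE 0.15, limma adjusted p 0.00421, and -0.00 against wild-type).

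Efhc2 (chromosome X, 17132049 to 17319368, minus strand), which encodes an EF-hand domain protein, fell further with the mutated form. It was at 603 and 602 normalised counts in oectrl, 396 and 415 in oeCTCFwt, and 311 and 308 in oeCTCFmut. The 3 groups lay in separate steps. The log2 difference was -0.96 against control (SE 0.08, limma adjusted p 0.00015) and -0.39 against wild-type CTCF (SE 0.08, adjusted p 0.0227).

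On the rising side, Trim35 (chromosome 14, 66297031 to 66311424, plus strand), a RING-type ubiquitin ligase gene, shared its level between both forms of CTCF. It was at 464 and 400 normalised counts in oectrl, 843 and 861 in oeCTCFwt, and 826 and 893 in oeCTCFmut, so the overexpressing libraries overlapped each other and not the control. The log2 difference was 0.99 for mutated CTCF (SE 0.09, limma adjusted p 0.000243) and 0.01 against wild-type (adjusted p 0.963). Map2, a neuronal microtubule-associated protein, was at 72 and 79.8 in oectrl, 196 and 179 in oeCTCFwt, and 152 and 140 in oeCTCFmut (0.94 for mutated CTCF, SE 0.16, limma adjusted p 0.00668). Its call was lost without oeCTCFmut replicate 1 (adjusted p 0.0529).

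**Figure D2:**
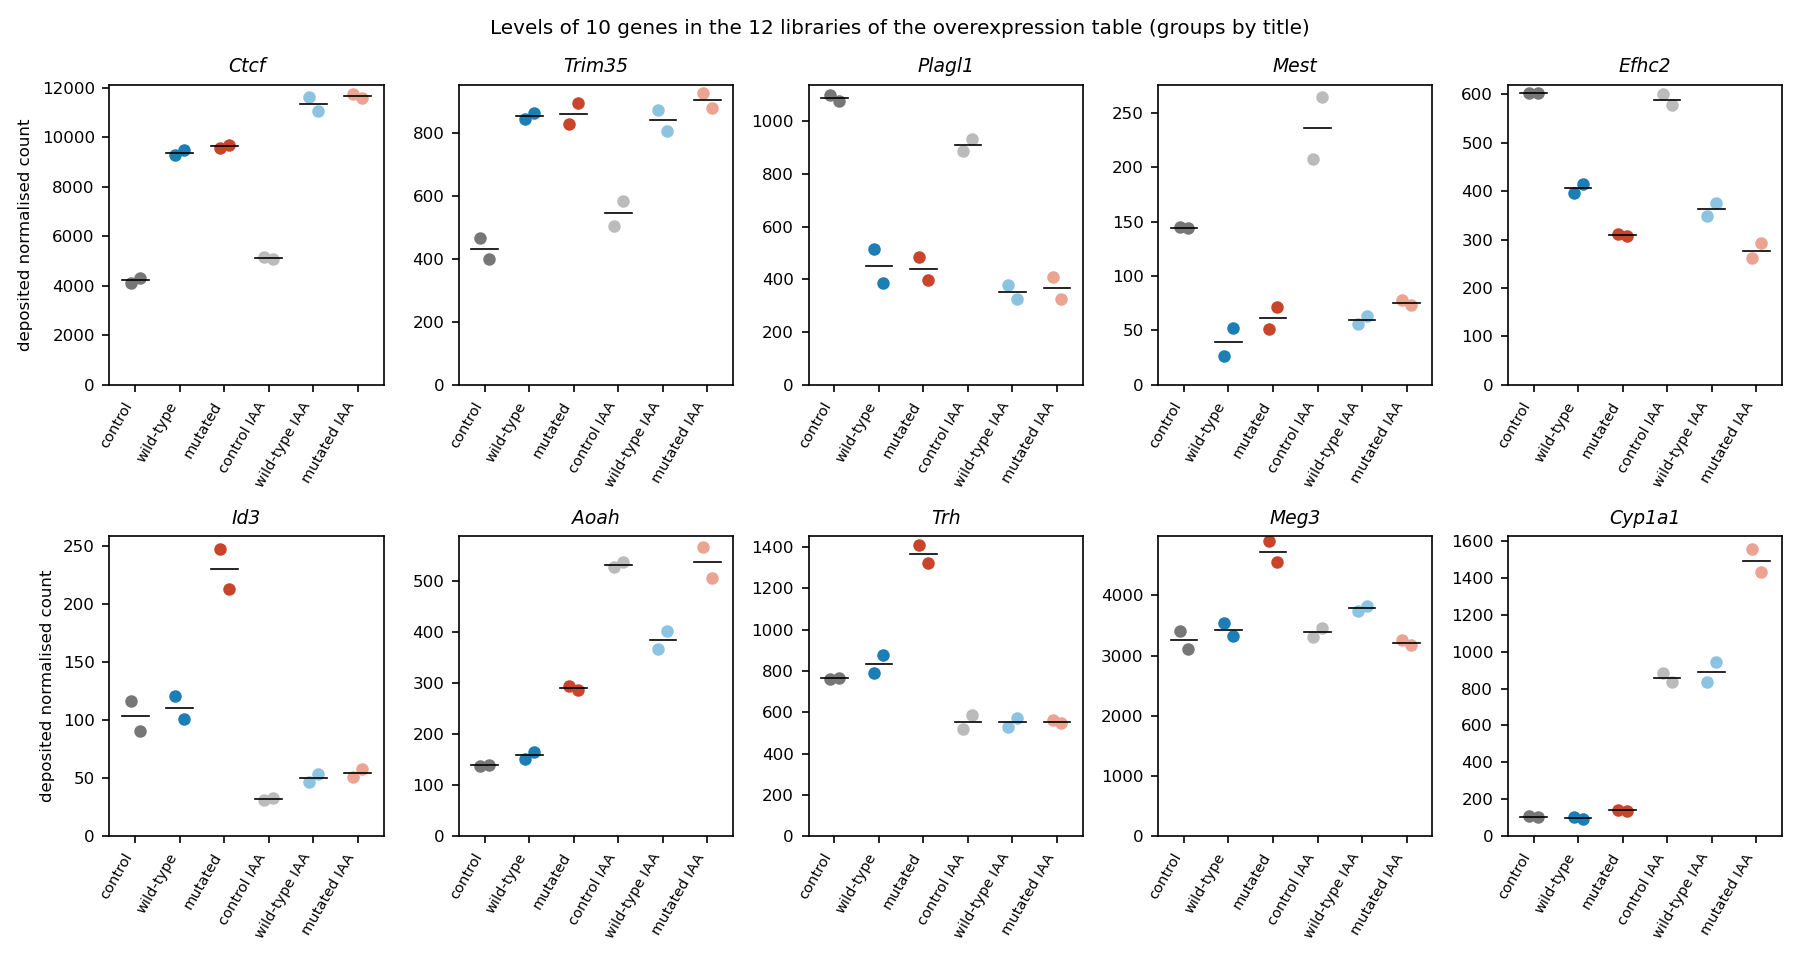
Points are the 2 libraries of each group, black bars their mean, and the y axis the deposited normalised count from zero; groups follow the sample titles. Plagl1, Mest, Trim35 and Ctcf stand at like levels in the wild-type and mutated libraries, whereas Id3, Aoah, Trh and Meg3 stand apart in oeCTCFmut among the libraries titled without IAA.

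A further set of genes changed with mutated CTCF and not by the wild-type form's own test, and also differed in the direct test between both forms. Id3 (ENSMUSG00000007872.3, chromosome 4, 136143497 to 136145755, plus strand), an inhibitor of basic helix-loop-helix factors and a target of BMP signalling, was at 117 and 91.0 normalised counts in oectrl, 121 and 101 in oeCTCFwt, and 248 and 213 in oeCTCFmut. The mutated libraries lay above all 4 others. In the libraries titled oectrl_IAA it was lower, at 31.5 and 32.7. The log2 difference was 1.15 against control (SE 0.19, limma adjusted p 0.00723) and 1.05 against wild-type (adjusted p 0.0108). The call against control was lost without oectrl replicate 2 or oeCTCFmut replicate 1 (highest adjusted p 0.0644).

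Aoah (ENSMUSG00000021322.8, chromosome 13, 20794113 to 21036617, plus strand), a lipase that inactivates bacterial lipopolysaccharide, was at 138 and 140 normalised counts in oectrl, 152 and 165 in oeCTCFwt, and 294 and 287 in oeCTCFmut. Among the libraries titled without IAA the mutated ones were highest by far, the wild-type ones lying slightly above the control, with a log2 difference of 1.06 against control (SE 0.10, limma adjusted p 0.000208) and 0.87 against wild-type (adjusted p 0.000734). In the libraries titled oectrl_IAA it was higher still, at 526 and 537. Aox3, an aldehyde oxidase, had the largest rise of the named genes, from 51.4 and 46.8 in oectrl to 103 and 169 in oeCTCFmut, with 47.2 and 55.9 in oeCTCFwt (1.41 against control, SE 0.24, limma adjusted p 0.00714). In oectrl_IAA Aox3 was at 202 and 223. Its call was lost without oeCTCFmut replicate 2 (adjusted p 0.0523).

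Trh (chromosome 6, 92242061 to 92244650, minus strand), the gene of thyrotropin-releasing hormone, was at 763 and 768 normalised counts in oectrl, 788 and 877 in oeCTCFwt, and 1409 and 1325 in oeCTCFmut. The mutated libraries were again the high ones. The log2 difference was 0.84 against control (SE 0.08, limma adjusted p 0.000259) and 0.72 against wild-type (adjusted p 0.000744). Libraries titled with IAA were lower than control, at 521 and 589 in oectrl_IAA and 563 and 547 in oeCTCFmut_IAA.

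Genes that fell with mutated and not with wild-type CTCF included Tgfbi, a secreted matrix protein induced by TGF-beta. It was at 201 and 253 normalised counts in oectrl, 259 and 249 in oeCTCFwt, and 106 and 108 in oeCTCFmut. Among the libraries titled without IAA the mutated ones were the low ones. The log2 difference was -1.08 against control (SE 0.20, limma adjusted p 0.0112) and -1.24 against wild-type (SE 0.20, adjusted p 0.00512). In libraries titled with IAA, Tgfbi was at 96.4 and 98.3 in oectrl_IAA and 129 and 115 in oeCTCFwt_IAA. The call against control was lost without oectrl replicate 2 or either oeCTCFmut library (highest adjusted p 0.0845). Tinagl1, another secreted matrix protein, fell from 99.2 and 109 in oectrl to 63.1 and 43.3 in oeCTCFmut, with 113 and 114 in oeCTCFwt (-0.98, SE 0.18, limma adjusted p 0.0117, and -1.10 against wild-type, adjusted p 0.00622). In oectrl_IAA it was at 160 and 184. The call against control was lost without oectrl replicate 2 or oeCTCFmut replicate 2 (highest adjusted p 0.0747). H1f10, a linker histone, was instead low with the wild-type form: it was at 342 and 287 in oectrl, 155 and 142 in oeCTCFwt, and 320 and 291 in oeCTCFmut (1.04 for mutated against wild-type, SE 0.16, limma adjusted p 0.00475).

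Cholesterol synthesis had the highest share of falls among the 38 gene lists examined. Cholesterol is built from acetyl-CoA through mevalonate and squalene by a chain of enzymes. Their genes are switched on together by the sterol-regulated factor SREBP2. Of 22 genes of this list, 15 were called lower with mutated CTCF and 0 higher by limma, against 2.24% called lower over all genes tested. At an unadjusted p under 0.05 the counts were 19 lower and 0 higher, against 1338 lower and 1523 higher of all 13938 genes tested. The median log2 difference of the list was -0.24 (-0.003 over all genes tested), and 21 of the 22 differences were below 0. With wild-type CTCF 1 gene of the list was called lower (55 of all 13938 genes tested) and the median was -0.01. The direct test of mutated against wild-type called 15 lower (2.73% over all genes), with a median of -0.23. Without oeCTCFmut replicate 1 the count of 15 fell to 9, and without any other of the 4 libraries it was 12. It was 8 without the mean trend and 10 with only the 4 libraries compared in the fit.

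Hmgcs1 (ENSMUSG00000093930.2, chromosome 13, 119690379 to 119708260, plus strand), which makes the HMG-CoA from which mevalonate is formed, fell most. It was at 19164 and 20048 normalised counts in oectrl, 17463 and 17796 in oeCTCFwt, and 13570 and 13618 in oeCTCFmut. The groups formed 3 separate steps, with mutated CTCF lowest, and a log2 difference of -0.53 against control (SE 0.02, limma adjusted p 8.94e-07) and -0.37 against wild-type (adjusted p 2.4e-05). Its promoter window is shown because it is the member with a match to the letters of the sterol regulatory element, the site SREBP factors bind. The sequence is from RefSeq (GRCm38.p6), 250 bases before to 50 bases after a transcription start, printed 5′ to 3′ along the gene, with the match TCACNCCAC in capitals.

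Hmgcs1 promoter, chr13:119690101-119690400, plus strand: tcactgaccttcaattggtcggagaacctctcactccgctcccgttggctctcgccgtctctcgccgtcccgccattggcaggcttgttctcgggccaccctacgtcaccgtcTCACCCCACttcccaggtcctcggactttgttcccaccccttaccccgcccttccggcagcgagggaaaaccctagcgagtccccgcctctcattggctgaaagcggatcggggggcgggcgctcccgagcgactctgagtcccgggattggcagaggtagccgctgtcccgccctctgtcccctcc

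Both strands were searched for TCACNCCAC (GTGGNGTGA on the other strand), where N is any base. Windows of the table were found by symbol for 15 of the 22 cholesterol genes, of which Hmgcs1 alone held the letters (6.67%), against 1.36% of the 10355 tested genes with a window and 1.24% of all 32851 windows of that length. The last share counts windows and the others count genes. These letters are 1 spelling of the element, and their absence from the other windows says nothing of SREBP binding there.

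The falls included early and late steps of the chain. Fdps, which joins isoprene units into farnesyl diphosphate, was at 6508 and 6482 in oectrl, 6541 and 6470 in oeCTCFwt and 5503 and 5476 in oeCTCFmut (log2 difference -0.24, limma adjusted p 0.00392). Lss, which closes squalene epoxide into lanosterol, was at 5196 and 5211, then 5044 and 5373, then 3957 and 4084 in the same order of groups (-0.37, adjusted p 0.000707). For both enzymes the wild-type libraries stood with the control and the mutated libraries lay below both groups.

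The late enzyme Dhcr7, which reduces the last double bond on the way to cholesterol, was at 2913 and 2894 normalised counts in oectrl and 2147 and 2338 in oeCTCFmut (log2 difference -0.37, limma adjusted p 0.00374). Insig1, which retains the SREBP complex in the endoplasmic reticulum and is itself an SREBP target, fell from 9895 and 9861 to 7813 and 7836 (-0.34, adjusted p 5.51e-05), with 10063 and 9893 in oeCTCFwt. Mvk, mevalonate kinase, was not called, with a difference of 0.02 (adjusted p 0.919). Srebf2, the gene of SREBP2, was at 6913 and 6482 in oectrl and 6424 and 5931 in oeCTCFmut, so that all control libraries were above the mutated ones, but the difference of -0.12 was not called (adjusted p 0.148). In libraries titled oectrl_IAA, Hmgcs1 was at 14934 and 14962 and Lss at 3761 and 3749, below oectrl as well.

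**Figure D3:**
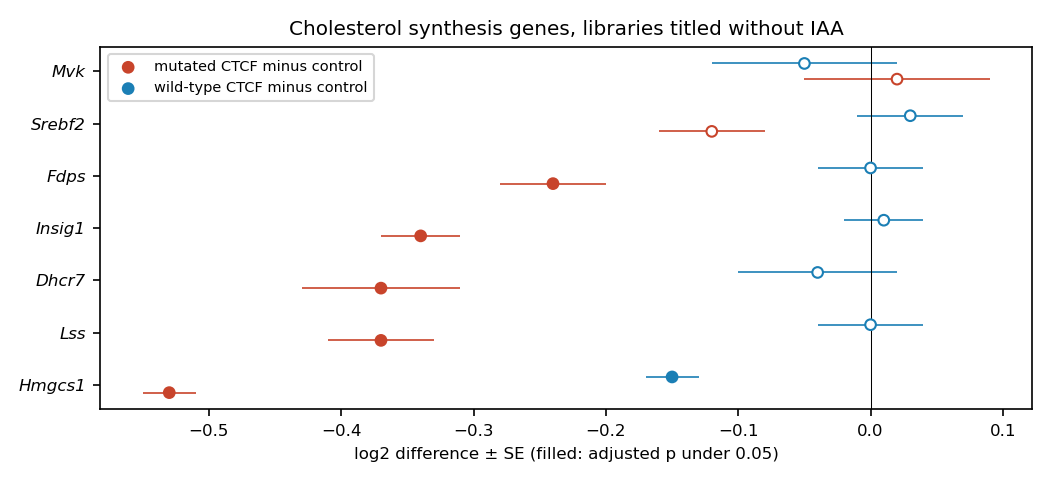
The log2 differences (x, with SE from limma) of the 7 cholesterol synthesis genes described in the text are plotted for mutated CTCF minus control (red) and wild-type CTCF minus control (blue), which share their 2 control libraries; filled points have an adjusted p under 0.05. Red points lie between -0.53 (Hmgcs1) and 0.02 (Mvk), with 5 filled, and of the blue points only that of Hmgcs1 is filled.

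Transcripts encoded by mitochondrial DNA rose. Of 13 such genes, 7 were called higher with mutated CTCF and 0 lower by limma, against 3.31% called higher over all genes. At an unadjusted p under 0.05 the counts were 8 higher and 0 lower, against 1523 and 1338 of all 13938 genes tested. The median log2 difference was 0.48. With wild-type CTCF 5 were called higher (70 of all 13938 genes tested), with a median of 0.12. Mutated against wild-type gave 8 higher (3.49% over all genes), with a median of 0.45. mt-Nd1, a core subunit of respiratory complex I, was at 36763 and 35870 normalised counts in oectrl, 40080 and 39035 in oeCTCFwt, and 56127 and 57388 in oeCTCFmut. The groups were in 3 separate steps, with a log2 difference of 0.64 against control (SE 0.02, limma adjusted p 1.7e-08) and 0.52 against wild-type (adjusted p 3.44e-07). mt-Co1, the catalytic subunit of cytochrome oxidase, rose from 173767 and 170367 to 242132 and 246841 (0.51, adjusted p 1.7e-08). The complex I subunits mt-Nd5 and mt-Nd2 had differences of 0.71 and 0.60. mt-Nd6 (0.69) overlaps mt-Nd5 on the opposite strand, so its value is uncertain without strand-aware counting.

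The remaining mitochondrial genes were noisier between replicates. mt-Co2 was at 15416 and 29824 normalised counts in oectrl, 16351 and 32191 in oeCTCFwt, and 19471 and 38653 in oeCTCFmut, so replicate 2 was far above replicate 1 in each group and the groups overlapped (log2 difference 0.36, limma adjusted p 0.644). Within each replicate number the mutated library was the highest of the 3. Mitochondrial transcripts made up 2.07 and 2.19% of all normalised counts in oectrl, 2.27 and 2.39% in oeCTCFwt, and 2.84 and 3.08% in oeCTCFmut. Of 90 nuclear genes of the respiratory chain, 1 was called higher and 1 lower, with a median of -0.02, and of 87 cytosolic ribosomal protein genes 2 were called higher and 1 lower, with a median of -0.02. Mitochondrial transcript share is also a measure of RNA and cell quality, and its part in the other differences was not tested.

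**Figure D4:**
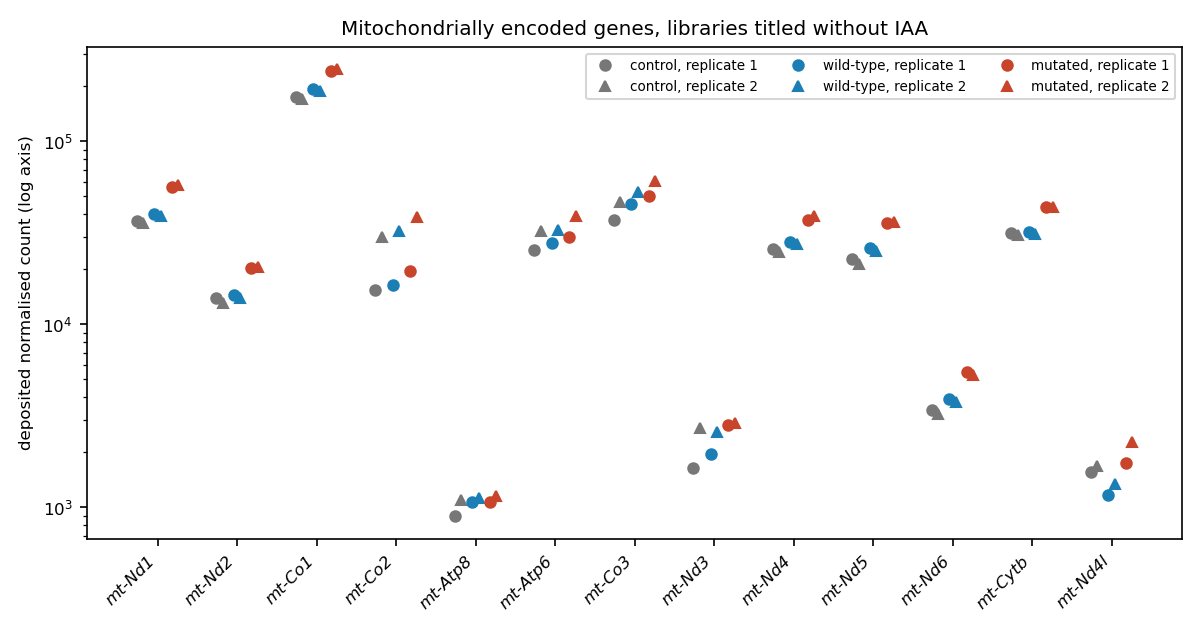
The y axis is the deposited normalised count (log axis) of 13 mitochondrially encoded genes in the 6 libraries titled without IAA, with circles for replicate 1 and triangles for replicate 2. Red points (mutated CTCF) lie above grey points (control) of the same replicate for each gene, and mt-Co2 differs more between replicates than between groups.

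Genes of the integrated stress response, which the factor ATF4 switches on when amino acids run short or proteins misfold, fell more often than they rose. Of 31 genes, 8 were called lower and 2 higher by limma, against 2.24% and 3.31% over all genes. At an unadjusted p under 0.05, 16 were lower and 2 higher, against 1338 and 1523 of all 13938 genes tested. The median log2 difference was -0.13. With wild-type CTCF the median was 0.02, and mutated against wild-type gave 9 lower and 1 higher (2.73% and 3.49% over all genes). Nupr1, a stress-induced chromatin protein, was at 692 and 670 normalised counts in oectrl, 619 and 609 in oeCTCFwt, and 410 and 411 in oeCTCFmut (-0.73 against control, SE 0.06, limma adjusted p 0.000112). Ddit4, an inhibitor of mTORC1, fell from 705 and 807 to 507 and 497, with 772 and 730 in oeCTCFwt (-0.59, adjusted p 0.00194). Atf4 itself fell from 5460 and 5370 to 4940 and 4667 (-0.17, adjusted p 0.0242), and the arginine transporter Slc7a3 rose from 1999 and 1807 to 2396 and 2497 (0.36, adjusted p 0.00483). The count of 8 fell to 3 without oectrl replicate 1 or oeCTCFmut replicate 2 and to 5 without oectrl replicate 2. It was 3 with only the 4 libraries compared in the fit and 5 without the mean trend. Of 15 genes of the unfolded protein response of the endoplasmic reticulum, 2 were called higher and 1 lower. Hspa5, the main chaperone of that compartment, rose from 8358 and 8179 to 9834 and 9887 (0.25, limma adjusted p 0.000337).

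Among 39 imprinted genes 6 were called lower and 2 higher, against 2.24% and 3.31% over all genes, so that the higher count is near the background. Those lower were Plagl1 and Mest (above), Gnas, Grb10, Impact and Dhcr7, the last being a member of the cholesterol list as well. Gnas, the stimulatory G protein subunit, fell from 2755 and 2806 normalised counts in oectrl to 2108 and 2070 in oeCTCFmut, with 2639 and 2593 in oeCTCFwt (log2 difference -0.41, limma adjusted p 0.000887). Both genes that rose are maternally expressed noncoding RNAs of the Dlk1-Dio3 cluster on chromosome 12. Meg3 (109541001 to 109571726, plus strand) was at 3413 and 3112 in oectrl, 3537 and 3320 in oeCTCFwt, and 4894 and 4546 in oeCTCFmut, with the mutated libraries alone high (0.53, SE 0.05, limma adjusted p 0.000367, and 0.46 against wild-type, adjusted p 0.001). Rian was at 7664 and 8046, then 7912 and 8217, then 9745 and 9408 (0.29, limma adjusted p 0.00346). With wild-type CTCF, against the same controls, 3 of the 39 imprinted genes were called lower and 2 higher. Over all 13938 genes tested these counts were 55 and 70. The list median was -0.06 with mutated and -0.02 with wild-type CTCF. The direct test called 4 lower and 3 higher in mutated CTCF (2.73% and 3.49% over all genes).

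Regulators of DNA methylation rose in 4 of 18 cases and fell in 0 by limma, against 3.31% called higher over all genes. The median of the list was nevertheless -0.02. At an unadjusted p under 0.05, 5 were higher and 2 lower, against 1523 and 1338 of all 13938 genes tested. Dnmt3b, a de novo methyltransferase, rose from 2004 and 1997 normalised counts in oectrl to 2490 and 2564 in oeCTCFmut, with 2034 and 1837 in oeCTCFwt (log2 difference 0.34, SE 0.05, limma adjusted p 0.00375). In oectrl_IAA it was at 2324 and 2366, also above oectrl. Zfp57, which protects methylation at imprinted regions, rose from 4779 and 4803 to 6266 and 6250, with 4833 and 4899 in oeCTCFwt (0.39, SE 0.03, limma adjusted p 2.66e-05). Hells, a chromatin remodeller needed for methylation, rose from 9322 and 9602 to 10590 and 11330 (0.21, adjusted p 0.00374). Tet2, which oxidises methylcytosine, had a difference of 0.34 (adjusted p 0.0143), a call lost when any 1 of the 4 libraries was left out (highest adjusted p 0.093).

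Meiotic and germline genes gave 6 lower and 1 higher of 29, against 2.24% and 3.31% over all genes, with a median of -0.07. With wild-type CTCF, against the same controls, 5 were called lower (55 of all 13938 genes tested) and the median was -0.20. Stra8, the retinoic acid target that starts meiosis, was at 277 and 276 normalised counts in oectrl, 134 and 113 in oeCTCFwt, and 161 and 157 in oeCTCFmut, low with both forms (log2 difference -0.80 for mutated CTCF, limma adjusted p 0.00851, a call lost without oeCTCFmut replicate 2 at 0.0552). Syce1, a synaptonemal complex protein, rose with the mutated form from 216 and 205 to 349 and 444, with 206 and 204 in oeCTCFwt and 499 and 629 in oectrl_IAA (0.90, SE 0.13, limma adjusted p 0.00335, and 0.94 against wild-type, adjusted p 0.00253). Taf7l, a testis form of a general transcription factor subunit, fell from 82.5 and 98.4 to 42.6 and 35.3 (-1.19, SE 0.19, limma adjusted p 0.00518).

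Glycolysis and hypoxia genes rose in 9 of 32 cases and fell in 2 with mutated CTCF, against 3.31% and 2.24% over all genes, and the median log2 difference was 0.00, with 16 genes above and 16 below 0. With wild-type CTCF, set against the same controls, 9 rose, where 0.897% of all genes were called in either direction, and the median was 0.14. In the direct test 11 were lower and 1 higher in mutated than in wild-type CTCF (2.73% and 3.49% over all genes). The median log2 difference there was -0.14. Members differed in their order. Ldha, lactate dehydrogenase, was at 6409 and 6670 normalised counts in oectrl, 8507 and 8673 in oeCTCFwt, and 7618 and 7604 in oeCTCFmut. The wild-type libraries of Ldha were highest and the mutated ones between them and the control (0.22 against control, limma adjusted p 0.00194, and -0.17 against wild-type, adjusted p 0.00622). Kdm3a, a histone demethylase induced by hypoxia, was at 4934 and 4542 in oectrl, 4160 and 4126 in oeCTCFwt, and 5583 and 5531 in oeCTCFmut. Here the mutated libraries were highest and the wild-type ones lowest (0.23 against control, limma adjusted p 0.0176, and 0.42 against wild-type, adjusted p 0.000683). The call of Kdm3a against control was lost without oectrl replicate 2 or either oeCTCFmut library (highest adjusted p 0.11).

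Other lists covered genes known for their dependence on CTCF, chromatin regulators and markers of cell state. Over all genes, 3.31% were called higher and 2.24% lower. At an unadjusted p under 0.05, 1523 of all 13938 genes tested were higher and 1338 lower. Clustered protocadherins (15 genes) and Hox genes (11 genes) gave 0 calls by limma, with 1 and 2 genes lower and 0 higher at an unadjusted p under 0.05. Of 10 core pluripotency genes 0 were called, with 4 higher at an unadjusted p under 0.05. Of 18 naive pluripotency genes Klf4 rose (0.19, adjusted p 0.0348) and Dppa5a fell (-0.18, adjusted p 0.001). The call for Klf4 was lost without either oectrl library or oeCTCFmut replicate 1 (highest adjusted p 0.196). Among 18 genes of CTCF and cohesin, besides Ctcf, Nipbl was called higher (0.14, adjusted p 0.0479) and Smc1b lower (-0.47, adjusted p 0.0259), and both calls were lost when any library was left out (highest adjusted p 0.21 and 0.144). Of 15 NuRD genes 2 were called higher and 0 lower, and of 27 Polycomb genes 1 higher and 1 lower. Of 23 genes listed for p53, 1 was called higher (Trp53, the gene of p53 itself) and 2 lower (Cdkn1a and Ccng1). These calls for Trp53, Cdkn1a and Ccng1 were lost with only the 4 libraries in the fit (limma adjusted p 0.186, 0.0904 and 0.143). At an unadjusted p under 0.05, NuRD had 5 higher and 0 lower, Polycomb 8 and 3, and CTCF and cohesin 7 and 1. The genes listed for p53 then had 1 higher and 10 lower, and their median log2 difference was -0.13, with 7 above and 16 below 0. Of 21 interferon response genes 3 were called higher and 0 lower (6 and 1 at an unadjusted p under 0.05), with a median of 0.27. The calls, of Ddx58, Oas1a and Xaf1, were lost with only the 4 libraries in the fit (limma adjusted p 0.0662, 0.117 and 0.108).

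Of 9 neural genes 3 were called higher (Tubb3, Map2 and Stmn2) and 0 lower, against 3.31% and 2.24% over all genes. Of 7 fibroblast and stroma genes 2 were called higher (Fn1 and Vim) and 0 lower. At an unadjusted p under 0.05, 3 neural genes were higher and 0 lower, and 3 stroma genes higher and 1 lower. Over all 13938 genes tested these counts were 1523 higher and 1338 lower. Stmn2 lost its call without oectrl replicate 1 or either oeCTCFmut library (highest adjusted p 0.235), and Vim without oectrl replicate 2 or oeCTCFmut replicate 1 (highest adjusted p 0.0605). Tubb3, a neuronal tubulin, was at 1381 and 1409 in oectrl, 1175 and 1171 in oeCTCFwt, and 1746 and 1827 in oeCTCFmut (0.36, limma adjusted p 0.0017, and 0.61 against wild-type, adjusted p 5.56e-05). In oectrl_IAA Tubb3 was higher still, at 2414 and 2327. The neural factor Sox1 was at 90.7 and 90.0 in oectrl and 52.4 and 79.3 in oeCTCFmut, and was not called (-0.48, adjusted p 0.305). The summed level of the 2 listed neural markers, Tubb3 and Sox1, was 1471 and 1499 in oectrl, 1281 and 1244 in oeCTCFwt, and 1799 and 1907 in oeCTCFmut. Most of each sum was Tubb3, so it adds little to the values of that gene. Neither the presence of neural cells nor their part in other differences was tested.

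CTCF recognises a long motif whose core can be written AGGNGGCNG (CNGCCNCCT on the other strand). Promoter windows from RefSeq were found by symbol for 10355 of the genes tested. The core letters were present for 32.3% of 353 genes called higher and 28.6% of 255 called lower, against 27.1% of the 10355 and 15.4% of all 32851 windows of that length. A match to these short letters is a description and not a site. Examples of windows with matches (in capitals, either strand) are given for genes described above, 5′ to 3′ along the gene.

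Dnmt3b promoter, chr2:153649199-153649498, plus strand: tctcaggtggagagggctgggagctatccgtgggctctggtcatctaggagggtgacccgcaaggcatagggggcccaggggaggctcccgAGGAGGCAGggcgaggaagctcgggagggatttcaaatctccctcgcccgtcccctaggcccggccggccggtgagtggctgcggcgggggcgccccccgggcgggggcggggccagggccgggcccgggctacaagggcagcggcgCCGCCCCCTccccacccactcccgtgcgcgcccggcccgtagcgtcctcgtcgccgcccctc
Map2 promoter, chr1:66175079-66175378, plus strand: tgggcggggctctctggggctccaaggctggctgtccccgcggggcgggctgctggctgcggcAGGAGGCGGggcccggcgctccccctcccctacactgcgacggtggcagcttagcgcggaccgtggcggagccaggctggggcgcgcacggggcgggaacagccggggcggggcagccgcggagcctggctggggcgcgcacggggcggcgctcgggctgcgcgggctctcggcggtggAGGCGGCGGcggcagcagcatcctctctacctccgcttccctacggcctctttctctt
Tinagl1 promoter, chr4:130175073-130175372, minus strand: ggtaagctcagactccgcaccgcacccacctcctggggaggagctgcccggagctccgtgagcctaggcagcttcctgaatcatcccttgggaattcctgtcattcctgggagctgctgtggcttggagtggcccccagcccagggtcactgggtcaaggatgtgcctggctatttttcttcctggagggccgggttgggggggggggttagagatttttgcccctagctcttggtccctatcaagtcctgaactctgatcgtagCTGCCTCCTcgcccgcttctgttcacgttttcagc

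The genes were then set against the other tables of the series, which share no library with this one, as a description across genes. In CTCF AID cells after 12 h of IAA, 9.59% of the 13367 genes tested in both tables were called higher and 8.42% lower. Of 458 genes called higher with mutated CTCF, 150 (32.8% of these, 11.7% of the 1282 higher after IAA) were higher after IAA and 31 (6.77% and 2.76%) lower. Of 311 genes called lower with mutated CTCF, 73 (23.5% of these, 6.49% of the 1125 lower after IAA) were lower after IAA and 33 (10.6% and 2.57%) higher. Wild-type CTCF, set against the same controls, shared calls with IAA as well. Of its 70 higher genes 17 (24.3% and 1.33%) were higher after IAA and 11 (15.7% and 0.978%) lower. Of its 54 lower genes 15 (27.8% and 1.33%) were lower after IAA and 13 (24.1% and 1.01%) higher. The shared counts of 150 and 73 fell to 79 and 40 without oectrl replicate 1, 76 and 40 without oectrl replicate 2, 69 and 40 without oeCTCFmut replicate 1, and 73 and 34 without oeCTCFmut replicate 2. They were 40 and 20 with only the 4 libraries compared in the fit, and 55 and 39 without the mean trend. Called genes had a higher median level than genes at large (above), and how much of these shares follows from that level was not tested. For genes that had changed by 2-fold or more at 12 h of IAA the values here were small: the median log2 difference with mutated CTCF was 0.150 over 169 genes that rose after IAA and -0.047 over 410 that fell, and with wild-type CTCF it was -0.023 and 0.035. By library, the medians against the control mean were 0.169 and 0.119 for the rising genes in oeCTCFmut and 0.813 and 0.905 in oectrl_IAA, and for the falling genes -0.070 and -0.052 against -0.736 and -0.685.

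**Figure D5:**
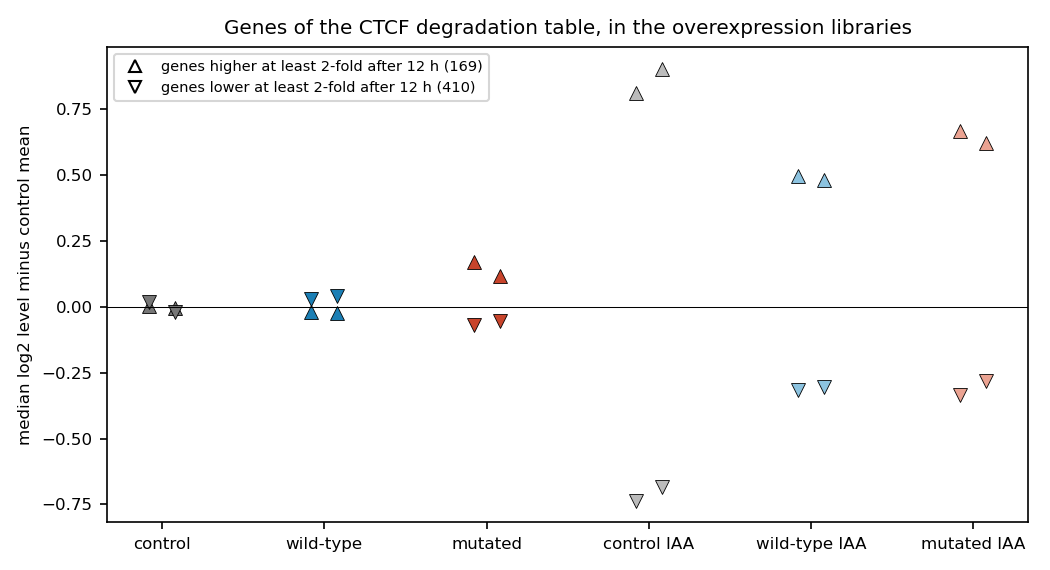
Triangles give, for each library (groups by title), the median log2(value + 1) minus the mean of the 2 control libraries over 169 genes that rose (pointing up) and 410 that fell (pointing down), each by 2-fold or more, in the separate CTCF degradation table at 12 h of IAA. The oeCTCFmut libraries stand at 0.169 and 0.119 and at -0.070 and -0.052, and the oectrl_IAA libraries at 0.813 and 0.905 and at -0.736 and -0.685.

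Slco5a1, an organic anion transporter family gene, was among those that moved with both. It was at 207 and 221 normalised counts in oectrl, 248 and 238 in oeCTCFwt, and 340 and 336 in oeCTCFmut, and at 742 and 722 in oectrl_IAA. The oeCTCFmut libraries were thus above oectrl and oeCTCFwt and below oectrl_IAA (log2 difference 0.66 against control, SE 0.09, limma adjusted p 0.00192, and 2.00 after 12 h of IAA in the degradation table, adjusted p 9.82e-05). Dusp9, an ERK phosphatase on the X chromosome, fell from 449 and 435 to 270 and 316 (-0.59, limma adjusted p 0.00375) and by 1.82 on the log2 scale after IAA in the degradation table. Direction was not shared throughout. Serpinb9, a granzyme inhibitor, was lower with mutated CTCF, at 53.3 and 51.1 against 80.4 and 77.4 (-0.59, limma adjusted p 0.0236, lost when any of the 4 libraries was left out, highest 0.107), and higher after IAA in the degradation table (2.97). Trh and Stra8 changed in the degradation table with mutated CTCF's direction (2.58 and -2.91) and in the oectrl_IAA libraries with the opposite one, Stra8 standing at 640 and 682 there.

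Serum culture and RAD21 loss gave other proportions. In CTCF AID cells in serum (12 h of IAA, 8.02% of 13181 shared genes higher and 9.94% lower), 64 of 454 genes higher with mutated CTCF were higher (14.1% of these and 6.05% of the serum list) and 100 lower (22% and 7.63%). Of 308 genes lower here 37 were higher (12% and 3.5%) and 47 lower (15.3% and 3.59%). With wild-type CTCF, against the same controls, 7 of 68 higher genes were higher in serum (10.3%) and 31 lower (45.6%). Of its 49 lower genes 7 were higher (14.3%) and 9 lower (18.4%). In RAD21 AID cells after 12 h of 1 uM 5-Ph-IAA (6.93% of 13064 higher, 6.64% lower), 49 of 452 genes higher with mutated CTCF were higher (10.8% of these and 5.41% of the RAD21 list) and 99 lower (21.9% and 11.4%). Of 309 genes lower here 58 were higher (18.8% and 6.41%) and 35 lower (11.3% and 4.03%). After 24 h (6.8% higher, 7.49% lower) the counter-directed counts were larger. Of the 452 genes higher with mutated CTCF 26 were higher (5.75% and 2.93%) and 145 lower (32.1% and 14.8%) after RAD21 loss. Of the 309 lower 85 were higher (27.5% and 9.57%) and 27 lower (8.74% and 2.76%). Of 69 genes higher with wild-type CTCF, 16 were lower after 12 h of RAD21 loss (23.2%) and 23 after 24 h (33.3%). Those higher after RAD21 loss were 16 (23.2%) and 11 (15.9%). Of 54 genes lower with wild-type CTCF, 16 (29.6%) were higher after 12 h and 6 (11.1%) after 24 h. Those lower were 4 (7.41%) and 17 (31.5%). With the hairpin against Chd4, the NuRD remodeller (29.6% of 13674 higher, 37.6% lower), 189 of 460 genes higher here were higher (41.1% of these and 4.67% of the Chd4 list) and 165 lower (35.9% and 3.21%). Of 312 genes lower here 90 were higher (28.8% and 2.23%) and 167 lower (53.5% and 3.25%). Of 70 genes higher with wild-type CTCF, 32 were higher (45.7%) and 32 lower (45.7%) with that hairpin. Of 55 genes lower with wild-type CTCF, 27 were higher (49.1%) and 20 lower (36.4%). How much of the shares in these tables follows from the level of the called genes was not tested.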

How the data were processed

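RNA-seq libraries were made from purified mRNA with a commercial kit, per the labels' protocols. The authors deposited a signal per gene and library at or above 0, read here as normalised counts from the abbreviated description in the labels. Trim Galore, Bowtie2, STAR, RSEM, DESeq2 and mm10 are named, without versions or roles, in the submitters' processing notes. Whole reads were not recovered from the values, so no count test was run and sequencing depth is unknown.

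Columns were matched to samples by title, and 0 were left unmapped. All 12 libraries of the table entered 1 linear model per gene with a mean of at least 10, so that they shared the estimate of spread. The model was limma 3.58.1 (R 4.3.3; eBayes with a mean trend) on values plus a pseudocount of 1, on the log2 scale. Calls rest on p-values adjusted by Benjamini and Hochberg's method across 13938 genes, with a threshold of 0.05. On this scale a log2 difference understates the change of low genes. SE is the model's standard error. With 2 libraries a group, an exact permutation test cannot give a p below 0.333, so none is reported. The code was tested on simulated data.

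Genes named were Ctcf, the 12 largest rises and falls among genes called with mutated CTCF and the 5 largest among those called against wild-type (the higher group averaging 100 or more, library ranges apart, no provisional symbol), up to 4 called members of each of 38 gene lists, marker and aryl hydrocarbon receptor genes, Pou5f1, Sox2 and Nanog, and genes of the CTCF degradation table with the largest changes (3 a direction shared with mutated CTCF and 2 of opposite direction). From these the text describes a part, and Fdps, Insig1, Mvk, Srebf2, Atf4, Rian, Grb10, Impact, Sox1, mt-Co1 and mt-Co2 were chosen after their values were seen. The members and lists were chosen with earlier results of these data known. Positions are those of GENCODE M21 on GRCm38, joined by Ensembl identifier without version (99.9% found). The CTCF degradation table ends in an incomplete line, which was not used. Some members of the cholesterol list are not reported by name here. Figures were drawn with matplotlib 3.10.9.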

Additional observations from a re-analysis of the deposited data

How the results depend on the processing

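The calls between mutated CTCF and control numbered 774 and lay between 737 and 883 with another pseudocount, without the filter or with a mean of at least 100, with TMM or quantile scaling. They moved to 370 without the mean trend, 186 with only the 4 libraries compared, 43 when a 2-fold change was also required, and 321 to 394 without 1 library. Groups by treatment label change the contrast itself, to 4 mutated libraries against the oectrl_IAA libraries, and gave 413. The calls between wild-type CTCF and control (125) became 48, 2, 18 and 59 to 76 for the same settings, those between mutated and wild-type CTCF (868) 427, 216, 50 and 360 to 479. The calls against oectrl_IAA (3297) became 563 with the 2-fold limit and 2121 to 2309 without 1 library, and those between oeCTCFmut_IAA and oeCTCFmut (2262) became 253 and 1202 to 1456. Fewer residual degrees of freedom follow from the fits with fewer libraries, and the causes of the other changes were not tested.

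The median of the genes that fell after 12 h of IAA (-0.047) was -0.011 with a mean of at least 100, -0.031 with quantile scaling and -0.094 to -0.052 without 1 library. The median of the genes that rose (0.150) was 0.046 over genes called by adjusted p alone, 0.107 with a mean of at least 100 and 0.118 to 0.188 without 1 library. Of 98 named genes called between mutated CTCF and control, 98 kept the call with pseudocount 5 and with TMM, 88 with quantile scaling, 41 with only 4 libraries, and 43 in every 1 of the 4 fits without a library. Hspa8 turned from 0.08 to -0.08 with quantile scaling. That scaling also moved the share of higher genes among the calls from 59.7% to 52.2%.

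Replicate numbers are shared between groups, but deviations of same-numbered oectrl and oeCTCFmut libraries correlated with r = 0.076 only, and the labels do not say that a number marks a shared culture or day. With the replicate block the calls numbered 741, 113, 866, 3227 and 2219 for the 5 comparisons above, and 89 of the 98 named genes kept the call. Counts added after the data were seen moved with the replicates left out: genes higher here and after 12 h of IAA numbered 69 to 79 in place of 150, and genes lower in both 34 to 40 in place of 73. The mitochondrial count stayed at 7 to 9.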

Other observations

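Chromosome 8, which carries the endogenous Ctcf gene, had the lowest median of the autosomes. Over its 716 tested genes the median log2 difference was -0.061 with mutated CTCF, with 10 genes called higher and 24 lower, and -0.043 with wild-type CTCF against the same controls. The medians of the other autosomes with mutated CTCF lay between -0.027 (chromosome 6) and 0.018 (chromosome 10). By library the chromosome 8 median against the control mean was -0.060 and -0.062 in oeCTCFmut, -0.045 and -0.053 in oeCTCFwt, -0.056 and -0.050 in oeCTCFmut_IAA and -0.003 and -0.006 in oectrl_IAA. What underlies these values was not tested.

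Of the 13 tested genes on chromosome Y, 4 were called higher with mutated CTCF by limma, against 3.31% over all genes, with a median log2 difference of 0.214. By library the median against the control mean was 0.223 and 0.262 in oeCTCFmut, 0.035 and 0.021 in oeCTCFwt, 0.383 and 0.430 in oeCTCFmut_IAA, and 0.272 and 0.210 in oectrl_IAA. Ddx3y, an RNA helicase gene, was at 2694 and 2764 normalised counts in oectrl, 3038 and 3071 in oeCTCFwt, and 3265 and 3404 in oeCTCFmut (0.29, limma adjusted p 0.00111).

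A part of the called genes lay beside each other. Of 462 genes called higher, 74 (16%) had another higher gene as the next tested gene on the chromosome, against 6.48% of all tested genes, and 12 (2.6%) had a lower one. Of 312 genes called lower, 31 (9.94%) had another lower gene next to them, against 4.43% of all. Overlapping and duplicated genes, whose reads may be shared, were not removed from these counts. The counts also include mitochondrial DNA, where 9 of all 15 tested genes were called higher.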
